A study of Mus musculus with 163 samples.

Results

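Growth of the mouse oocyte inside the ovary was described here by setting fully grown oocytes (FGOs) against growing oocytes (GROs), both isolated directly from mice without culture. The libraries were chosen by their source label alone: all 20 labelled in vivo-derived FGO and all 24 labelled in vivo-derived GRO, 44 of the 163 single oocytes of the series. Each library is the polyadenylated RNA of 1 oocyte, amplified by the Smart-seq2 method after follicle cells and zona pellucida had been stripped off. The labels give no age, strain, genotype or animal for these oocytes, so the number of mice and the ages of the stages did not enter the comparison. Because no label ties an oocyte to an animal, each stage was treated as 1 sample and no test was run. The size of every difference is given with the spread over oocytes instead.

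A mouse oocyte grows while arrested in meiotic prophase, enclosed by granulosa cells to which it is joined by gap junctions. Over this period it builds the zona pellucida, stores ribosomes, mitochondria and messenger RNA for the embryo, sets the maternal DNA methylation pattern and becomes able to resume meiosis. Transcription is high in the growing oocyte and stops near the end of growth, when the chromatin gathers around the nucleolus, and from then on messages can only be kept, translated or degraded. The comparison asks which functions gain and which lose weight in the RNA pool over growth.

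Reads counted in genes ranged from 5548760 to 7544104 per GRO (median 6868372) and from 6442882 to 8793876 per FGO (median 7164614). A GRO had between 10619 and 11368 genes above 1 CPM (counts per 1000000 counted reads), and an FGO between 10753 and 11897. The 50 most abundant genes of a library held 17.7% to 23.7% of the reads in GROs and 16.3% to 18.4% in FGOs. All 12 defining oocyte markers were found at both stages. Of 11 granulosa markers that entered, 6 were at least 2-fold higher in FGOs, and their summed level was 59.6 to 202 CPM in GROs and 276 to 616 CPM in FGOs, highest in FGO 19. In the pool of each stage most of that sum was Esr2 (an estrogen receptor), which had 37.4, 80.7 and 124 CPM in GROs and 174, 238 and 327 CPM in FGOs. In FGO 19, Gja1, a connexin, had 294 CPM. The sum of cumulus markers stayed at or below 2.59 CPM in every oocyte, with Ptx3 and Pgr at 0 reads, and theca and stroma markers reached 41.4 CPM in 1 library, FGO 16. Of the 20 FGOs, 5 (FGO 5, 7, 16, 19 and 22) had been left out by the study for their size. FGO 7 had a higher median correlation with GROs (0.964) than with the other FGOs (0.941), across log2 levels of all genes. Values without them are called those with the 15 kept FGOs, and are given beside each list whose count of lower genes moved by over 1.5 times.

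Slightly more genes were at least 2-fold lower than higher in FGOs by share of the reads, an order that turned with the size factors of DESeq2 (1518 higher and 1495 lower). A CPM is a share of the reads of a library, so a lower CPM means a smaller share, and amounts per oocyte were not analysed here. The pooled CPM of each stage was compared as a log2 ratio, FGO over GRO, after adding 0.5 CPM to both, for the 13148 genes with over 1 CPM in at least 3 of the 44 oocytes. The middle gene had a log2 ratio of -0.11, the quartiles were -0.63 and 0.39, and 76.3% of genes lay within 2-fold. At least 2-fold higher in FGOs were 1373 genes, which is 10.4% of those measured, and at least 2-fold lower were 1738, which is 13.2%. At 4-fold the order was the opposite: 404 genes (3.07%) were higher and 256 (1.95%) lower. With the 15 kept FGOs, 1455 genes (11.1%) were at least 2-fold higher and 2367 (18%) at least 2-fold lower, and the middle gene had a log2 ratio of -0.16. Of the 290 genes picked out by rule or as markers, 53 ratios then moved by over 1.5-fold, and 49 of these were genes already at least 2-fold lower that fell further. All 168 picked genes at least 2-fold lower stayed so, as did 88 of the 90 higher ones, the other two being the granulosa markers Fst and Inhba.

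How often single oocytes followed the pooled ratio was read from the 480 pairs of 1 FGO and 1 GRO. The FGO had the higher value in at least 90% of pairs for 2221 genes and the lower value in at least 90% for 2283. Of the genes past 2-fold, 1177 of the higher and 1314 of the lower ones met this. In 297 genes (2.26%) every FGO lay above every GRO, and in 156 genes (1.19%) every FGO lay below. These counts rest on the few FGOs that sit near the GROs: without FGO 7 they were 556 and 323, and without the 5 FGOs left out by size 937 and 928.

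Large ratios belonged to genes of low and middle abundance. Among 2826 genes with a mean of both pooled levels between 5 and 20 CPM, 13.2% were at least 2-fold higher and 23.5% lower, and among 2590 genes between 1 and 5 CPM the shares were 18.2% and 18.7%. Between 100 and 500 CPM only 3.95% of 1948 genes were higher and 3.08% lower. Above 500 CPM, where 286 genes lie, 12 were higher and 10 lower, and the median log2 ratio was 0.19 against -0.29 for genes between 5 and 20 CPM. The middle gene of the abundant class thus had a larger share in FGOs, while that of the class between 5 and 20 CPM had a smaller one.

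The largest losses of share between the pools were those of abundant oocyte genes. A loss or gain is the difference of the pooled levels with no test, so only genes abundant in a stage can rank high. Levels of different genes were compared per exonic length, as TPM (transcripts per 1000000 transcripts). In what follows, 3 values in a row are the lowest, the median and the highest oocyte of a stage (24 GROs, 20 FGOs), and each log2 ratio is that of pooled CPM. The largest loss was that of Padi6, which encodes a protein of the cytoplasmic lattices that store maternal components, from 14881 to 7369 TPM. Padi6 had 13599, 19149 and 26927 CPM in GROs and 6223, 9696 and 12073 CPM in FGOs (log2 ratio -1.01), and no FGO reached the lowest GRO. The next losses were the zona pellucida glycoproteins Zp3, from 15001 to 8371 TPM, and Zp2, from 7817 to 3789 TPM. Zp3 had 8701, 10938 and 14306 CPM in GROs and 4383, 6069 and 7900.2 CPM in FGOs, and the stages did not overlap. Ldhb, a subunit of lactate dehydrogenase, also separated without overlap, with 4843, 5888 and 7856 CPM in GROs and 2970.4, 3563 and 4275 CPM in FGOs (log2 ratio -0.74). Npm2, the maternal nucleoplasmin that handles histones after fertilization, had 2659, 3199 and 5722 CPM in GROs and 1245, 1615 and 2267 CPM in FGOs. Dppa5a, a germ cell RNA-binding protein, showed the steepest loss of the 10, with 619, 943 and 1398 CPM in GROs and 135, 246 and 729 CPM in FGOs (log2 ratio -1.77), and in it only the highest FGO, FGO 7, reached into the range of the GROs. Nlrp14, Uchl1, Zp1 and Nlrp5 complete the 10 largest losses, with log2 ratios of -0.55, -0.44, -0.79 and -1.12.

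The largest gains by the same ranking were, with 1 exception, in genes already abundant in GROs. Elobl, an elongin B-like gene, had the largest gain, from 7081 to 9500.4 TPM, with 2168, 2804 and 3504 CPM in GROs and 3275, 3622 and 4314 CPM in FGOs (log2 ratio 0.42). Bcl2l10, an anti-apoptotic BCL2 relative of the oocyte, went from 5282 to 7513 TPM. Tcl1, a coactivator of AKT, had 2100.2, 2472 and 3366 CPM in GROs and 2806, 3747 and 4879 CPM in FGOs. Bmp15, the growth factor that the oocyte secretes to its granulosa cells, had 2793, 3371 and 4364 CPM in GROs and 4678, 5535 and 7165 CPM in FGOs (log2 ratio 0.75), and all FGOs lay above all GROs. Btg4, the adaptor that brings the CCR4-NOT deadenylase to maternal messages, had 1159, 1659 and 2126 CPM in GROs and 2067, 2714 and 3669 CPM in FGOs (log2 ratio 0.73). Oog3, a leucine-rich repeat gene of the oogenesin family, was the exception: 20.8, 356 and 766 CPM in GROs and 1273, 1597 and 1766 CPM in FGOs (log2 ratio 2.08). Its GROs spread over a wide range and its FGOs over a narrow one. The other 4 of the 10, Oosp1, E330021D16Rik, Oas1d and Rfpl4, had log2 ratios of 0.49, 0.61, 0.78 and 0.64.

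**Figure D1:**
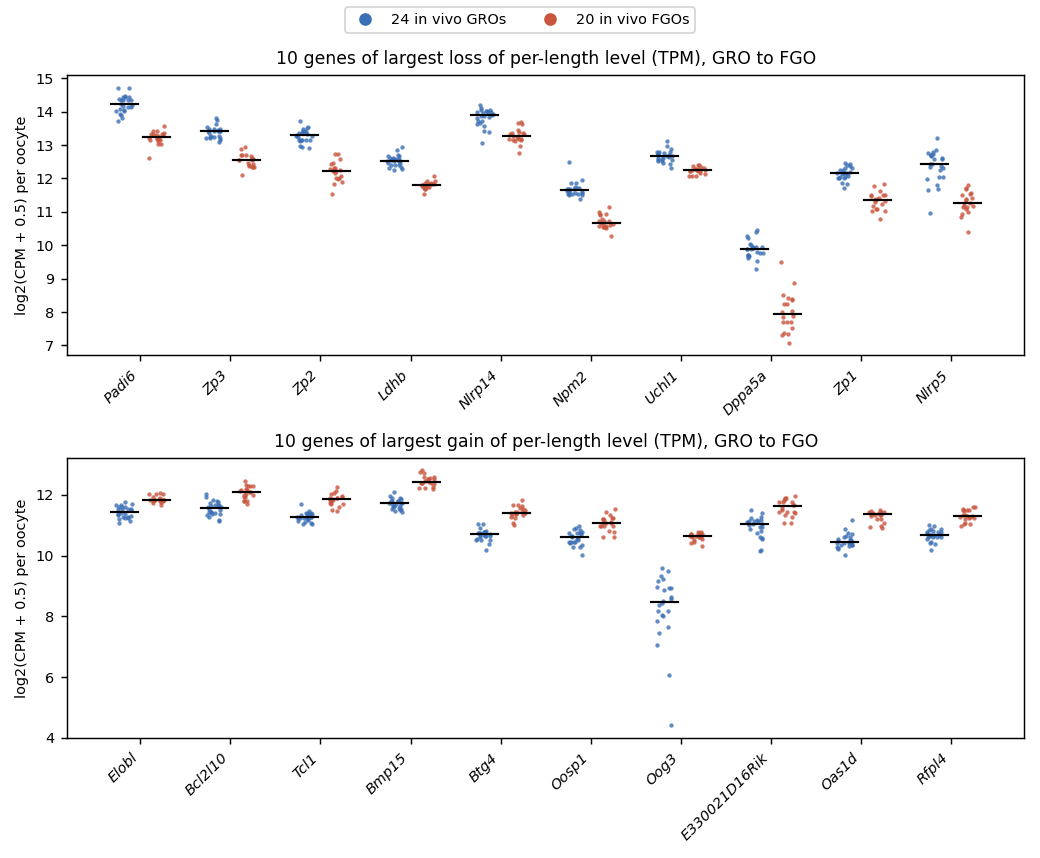
Level of the 10 genes with the largest loss (top) and the 10 with the largest gain (bottom) of TPM from GRO to FGO, as log2(CPM + 0.5); each point is 1 oocyte, and black bars are medians of the 24 in vivo GROs (left of each pair) and 20 in vivo FGOs (right). Padi6, Zp3, Zp2, Ldhb and Npm2 show no overlap between the stages, and Oog3 spreads from 20.8 to 766 CPM in GROs but from 1273 to 1766 CPM in FGOs.

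Genes whose oocytes separated fully and whose ratios were largest were then described. Only genes that reached 20 CPM in the pool of either stage were taken, and the first on the FGO side was Htr5a, a serotonin receptor (Entrez gene 15563, chr5:27841716-27855086 in GRCm38). Its pooled level was 6.07 CPM (95% interval 5.69 to 6.46) in GROs and 139 CPM (137 to 141) in FGOs, intervals that cover counting error only. Single oocytes had 1.17, 4.22 and 17.2 CPM in GROs and 52.7, 142 and 185 CPM in FGOs (log2 ratio 4.41). Rgn, the calcium-binding regucalcin, followed with 0, 3.78 and 11.9 CPM in GROs and 19.8, 103 and 157 CPM in FGOs. Etl4 (Entrez gene 208618, chr2:19910207-20810535) had 0.147, 2.68 and 7.62 CPM in GROs and 8.21, 74.8 and 99.1 CPM in FGOs (log2 ratio 4.25). Dapp1, an adaptor that binds phosphoinositides, and Rrh, a retinal opsin, had medians near 1 CPM in GROs and log2 ratios of 4.15 and 3.96. Sec16b, which marks exit sites of the endoplasmic reticulum, had 0, 1.57 and 5.98 CPM in GROs and 12, 39.5 and 51.7 CPM in FGOs. Cxcr3, a chemokine receptor, had 0.994, 2.61 and 9.54 CPM in GROs and 11.1, 61.2 and 109 CPM in FGOs, and Gfra1, the receptor of the growth factor GDNF, had 0.294, 5.15 and 30.8 CPM in GROs and 44.3, 103 and 129 CPM in FGOs. Plek and Gramd1c close the 10, with log2 ratios of 3.80 and 3.74.

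On the other side the first was Haghl, a relative of a glyoxalase (Entrez gene 68977, chr17:25779843-25785586), which had 7.17, 20.1 and 50.7 CPM in GROs and 0, 0.291 and 5.28 CPM in FGOs. Ier2, an immediate early gene, had 29.6, 52.1 and 79 CPM in GROs and 0.138, 2.53 and 25.8 CPM in FGOs (log2 ratio -3.47). Myot, known as a protein of the muscle Z-disc, had 41.6, 113 and 197 CPM in GROs and 4.81, 9.31 and 21 CPM in FGOs (log2 ratio -3.42). Adad2, an adenosine deaminase domain gene of germ cells (Entrez gene 75773, chr8:119612710-119616926), had 25.7, 52 and 82.2 CPM in GROs and 1.98, 3.53 and 18.3 CPM in FGOs (log2 ratio -3.24). Slc39a1, a zinc importer, had 27.5, 42.3 and 61.3 CPM in GROs and 0, 2.81 and 23.8 CPM in FGOs, and Xbp1, the transcription factor of the unfolded protein response, had 26.3, 50.8 and 89 CPM in GROs and 0, 3.29 and 23.4 CPM in FGOs. Xpot, the exportin of transfer RNA, had 17.6, 23.7 and 30.6 CPM in GROs and 0, 0.719 and 17.3 CPM in FGOs. In Xpot the highest FGO lay just under the lowest GRO, whereas in Myot a wide gap parted the stages. Esyt3, Map7d1 and Irf2bp2 had log2 ratios of -2.72, -2.67 and -2.56.

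**Figure D2:**
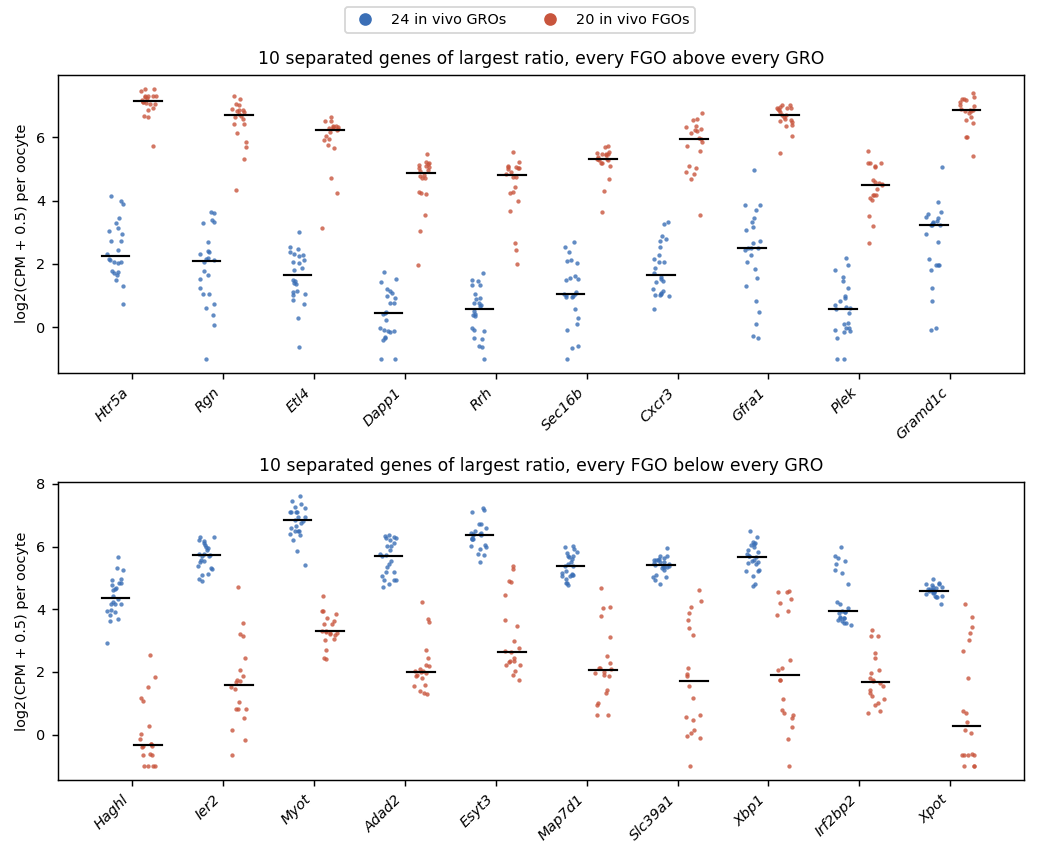
Level in each oocyte, as log2(CPM + 0.5), of the 10 genes of largest ratio among those with every FGO above every GRO (top) and every FGO below every GRO (bottom), restricted to genes that reach 20 CPM in a pool; points are oocytes and black bars group medians. Htr5a runs from 1.17 to 17.2 CPM in GROs and from 52.7 to 185 CPM in FGOs, and Haghl from 7.17 to 50.7 CPM and from 0 to 5.28 CPM.

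The start regions of these genes differed in how many CpG dinucleotides they hold. The sequences below are those of the 2 genes of largest ratio on each side that have an entry among RefSeq promoters of GRCm38.p6, running from 250 bases before to 50 bases after the start, with each CpG in capitals. They lie at chr5:27841697-27841996 (plus strand) for Htr5a, chr2:20289663-20289962 (plus) for Etl4, where the start used is inside the gene's full span, chr17:25785537-25785836 (minus) for Haghl and chr8:119612463-119612762 (plus) for Adad2.
Htr5a: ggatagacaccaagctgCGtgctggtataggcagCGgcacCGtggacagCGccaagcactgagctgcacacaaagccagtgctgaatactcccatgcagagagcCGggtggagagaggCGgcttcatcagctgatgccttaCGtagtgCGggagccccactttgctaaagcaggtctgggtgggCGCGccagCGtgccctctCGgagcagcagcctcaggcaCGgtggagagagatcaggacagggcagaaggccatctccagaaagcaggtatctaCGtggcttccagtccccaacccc
Etl4: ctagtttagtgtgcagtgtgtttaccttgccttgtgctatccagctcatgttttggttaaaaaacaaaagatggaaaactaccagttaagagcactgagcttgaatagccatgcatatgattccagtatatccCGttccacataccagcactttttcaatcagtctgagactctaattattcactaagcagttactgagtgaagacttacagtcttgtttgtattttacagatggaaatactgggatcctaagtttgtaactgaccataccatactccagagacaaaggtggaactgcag
Haghl: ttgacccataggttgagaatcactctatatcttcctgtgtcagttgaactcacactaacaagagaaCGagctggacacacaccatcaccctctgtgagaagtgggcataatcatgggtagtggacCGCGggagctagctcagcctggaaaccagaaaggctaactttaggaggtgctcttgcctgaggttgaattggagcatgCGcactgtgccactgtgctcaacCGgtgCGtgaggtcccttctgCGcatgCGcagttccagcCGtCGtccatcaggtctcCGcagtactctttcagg
Adad2: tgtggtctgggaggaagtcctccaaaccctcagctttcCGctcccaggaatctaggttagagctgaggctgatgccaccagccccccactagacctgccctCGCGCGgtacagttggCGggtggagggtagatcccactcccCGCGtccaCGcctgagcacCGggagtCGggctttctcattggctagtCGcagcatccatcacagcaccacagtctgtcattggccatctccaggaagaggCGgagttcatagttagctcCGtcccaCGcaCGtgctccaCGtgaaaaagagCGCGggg
The 300 bases hold 14 CpG in Htr5a, 1 in Etl4, 11 in Haghl and 18 in Adad2. Set against what base composition alone would give, the CpG ratio was 0.498 and 0.0862 in the first pair and 0.516 and 0.647 in the second. Of the 20 genes in the plot of separated genes, 17 have an entry. The 9 on the FGO side had ratios from 0.0862 (Etl4) to 0.549 (Gfra1), and the 8 on the GRO side from 0.493 (Esyt3) to 1.09 (Irf2bp2). The ranges overlap between 0.493 and 0.549.

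To see functions beyond single genes, 64 lists of genes by function were read together. They were drawn up with earlier results of these data known, and describe only. Some take members by the stem of the symbol, so that a few members have another function. Of these, 52 had more members at least 2-fold lower than higher, 8 more higher and 4 equal numbers. No member was at least 2-fold higher in 22 lists, and none at least 2-fold lower in 2. Against the background, the share of higher members was above that of all genes in 9 lists and the share of lower members in 30. The background for every count below is 10.4% of all genes higher and 13.2% lower, and for every median the log2 ratio of -0.11 over all genes. Medians by list ran from -0.66 in histone lysine demethylases to 0.52 in retinoid and xenobiotic metabolism. The lists at the low end, after the demethylases, were the Kit, PI3K, mTOR and FOXO pathway (-0.49), mitochondrial carriers (-0.43) and imprinted genes (-0.43). Those at the high end, before retinoid metabolism, were chemokines and cytokines (0.43), G protein-coupled receptors (0.23) and ion channels (0.22). With 1 gene kept per set that holds the same reads, cadherins, contactins and gap junctions came between the chemokines and the G protein-coupled receptors (0.40), and imprinted genes came next after the demethylases (-0.51). With the 15 kept FGOs the count of lower members rose in 47 lists and fell in 1, by over 1.5 times in 13, and the count of higher members moved that far in 10, by 1 or 2 genes each. The zona list (-0.58) and imprinted genes (-0.57) then came next after the demethylases (-0.89) at the low end. Keeping only genes above 1 CPM in at least 20 oocytes, a filter tried on the lists after seeing the data, left 9.66% of 11284 genes higher and 14.1% lower. The medians were then 0.59 in cadherins, contactins and gap junctions, 0.50 in chemokines and cytokines, 0.49 in retinoid metabolism and 0.26 in ion channels, but 0.08 in G protein-coupled receptors, with 12 of 62 higher and 12 lower. A gene near silence in 1 stage entered only through the other, so the counts of the lists at the high end are no measure of all their members. Leaving out 1 oocyte moved a count of higher or lower members by over 1.5 times in 14 lists, by 1 gene in all but 2. The only higher member could be lost in this way in kinetochore genes, antioxidant defence and histones. In chemokines and cytokines the only lower member could be lost. The lists first named at the high end hold genes of low level, with medians of 2.37 to 3.93 CPM, and among all genes between 1 and 5 CPM the background is 18.2% higher and 18.7% lower. Counting each gene once in a theme, 24.7% of 381 genes of the membrane were higher and 12.3% lower, while of 284 genes of transcription and translation 0.352% were higher and 9.51% lower. Of 613 genes of chromatin and its regulators, 4.4% were higher and 18.4% lower. The share of all TPM held by a list did not overlap between the stages in 5 lists, being lower in FGOs in 2 and higher in 3.

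**Figure D3:**
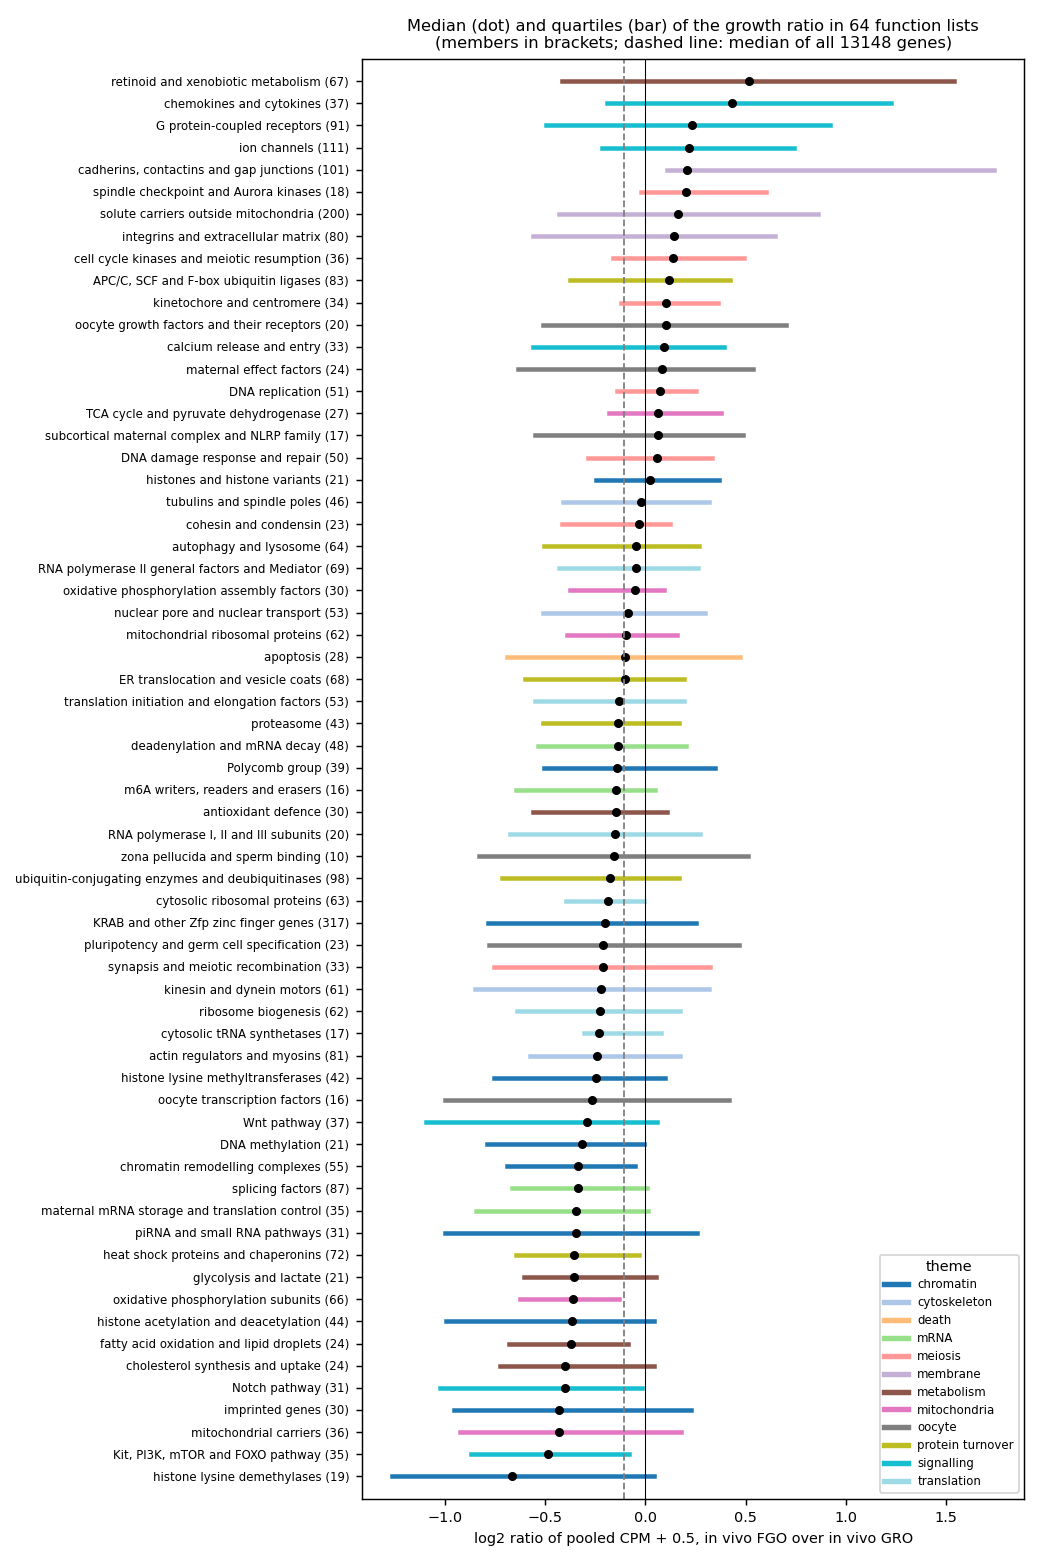
Median (dot) and quartiles (bar) of the log2 ratio of pooled CPM + 0.5, FGO over GRO, over the measured members of 64 function lists, ordered by median and coloured by theme; the number of members is in brackets, the dashed line is the median of all 13148 genes (-0.11). Medians run from -0.66 for histone lysine demethylases to 0.52 for retinoid and xenobiotic metabolism.

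Genes of the oocyte's own program had 7 of 107 members at least 2-fold higher and 16 lower, the lower ones spread over its lists. Of 10 genes for the zona pellucida and sperm binding, 0 were at least 2-fold higher and 1 lower (median log2 ratio -0.16, and -0.58 with the 15 kept FGOs, when 1 was higher and 2 were lower). Their share of all TPM was 3.22% to 4.38% in GROs and 2.38% to 3.05% in FGOs, so that the 2 stages did not overlap. The member past 2-fold was Zp2, with 7760.2, 10019 and 13519 CPM in GROs and 2958, 4835 and 6849 CPM in FGOs (log2 ratio -1.05). Of 17 genes of the subcortical maternal complex and the NLRP family, 1 was higher and 3 were lower, and their share of TPM had a median of 5.92% in GROs and 4.39% in FGOs. Khdc3, a scaffold protein of that complex, had 988, 1920.1 and 2805 CPM in GROs and 288, 736 and 1572 CPM in FGOs, and Nlrp5, another of its core proteins, had 1985, 5578 and 9443 CPM in GROs and 1335, 2456 and 3602 CPM in FGOs. Nlrp9a was higher in FGOs without overlap, with 98.2, 316 and 471 CPM in GROs and 484, 704 and 957 CPM in FGOs (log2 ratio 1.25).

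Of 16 oocyte transcription factors, 0 were at least 2-fold higher and 4 lower. Figla, which drives the zona genes, had 102, 157 and 238 CPM in GROs and 42, 49.9 and 113 CPM in FGOs (log2 ratio -1.47). Tbpl2, the TATA-binding protein of the growing oocyte, had 56.3, 76.1 and 126 CPM in GROs and 12.4, 20.2 and 76.1 CPM in FGOs, and Sohlh1, needed early in follicle growth, had 0.398, 12.7 and 84.1 CPM in GROs and 0, 0.14 and 13.8 CPM in FGOs. In contrast, Nobox had 744, 1156 and 1331 CPM in GROs and 818, 1145 and 1595 CPM in FGOs, so that the stages overlapped widely. The list's share of TPM was 0.418% to 0.614% in GROs and 0.592% to 0.821% in FGOs, ranges that overlap but with the higher median in FGOs, although every member past 2-fold was lower with all oocytes. Leaving out FGO 5, 7 or 19 or GRO 11 gave 1 member at least 2-fold higher, and the 15 kept FGOs gave 2. Among growth factors and their receptors 3 of 20 were higher and 3 lower. Gdf9, the partner of Bmp15, had 9145, 10149 and 11242 CPM in GROs and 5531, 9841 and 11407 CPM in FGOs, and Fgfr2, a receptor of fibroblast growth factors, had 3.14, 16.1 and 41.5 CPM in GROs and 44.1, 73.9 and 98 CPM in FGOs without overlap. Tgfbr1, a TGF-beta receptor, had 28.7, 39.1 and 104 CPM in GROs and 5.74, 15.3 and 31.6 CPM in FGOs, Acvr2b, an activin receptor, a log2 ratio of -1.33, and Igf1r, the receptor of insulin-like growth factor, -1.14.

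Maternal effect factors as a list stayed near the background, with 2 of 24 higher and 3 lower (5 lower with the 15 kept FGOs). Both higher members were oogenesins: beside Oog3, Oog2 had 7.59, 98.7 and 206 CPM in GROs and 286, 341 and 421 CPM in FGOs (log2 ratio 1.85). Oog2 and Oog3 are close relatives on chromosome 4, and since only uniquely mapped reads were counted, reads that fit both are missing. Smarca4, the ATPase BRG1, had a log2 ratio of -1.02. Dppa3, which protects maternal methylation in the zygote, had 1302, 1651 and 2266 CPM in GROs and 1150.1, 1529 and 1716 CPM in FGOs, and Ooep of the subcortical complex had 3394, 4043 and 7633 CPM in GROs and 3082, 3720.2 and 4249 CPM in FGOs, both with overlapping stages. Of 23 genes of pluripotency and germ cell specification 1 was higher and 2 were lower (4 lower with the 15 kept FGOs). The higher one was Prdm1, the germ cell determinant BLIMP1, with 0.289, 8.45 and 20.5 CPM in GROs and 26.8, 57.8 and 79.2 CPM in FGOs and no overlap (log2 ratio 2.51).

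Genes that handle messenger RNA had 2.15% of 186 members higher and 15.6% lower. Of 35 genes for storage and translational control of maternal messages, 0 were at least 2-fold higher and 7 lower (median log2 ratio -0.34). Ddx6, an RNA helicase of storage granules, had 27, 38.7 and 77.3 CPM in GROs and 4.82, 12.7 and 32.7 CPM in FGOs, and Pabpc1, the cytoplasmic poly(A)-binding protein, had 11.2, 18.1 and 44.7 CPM in GROs and 1.86, 5.96 and 18 CPM in FGOs. Larp1b had a log2 ratio of -1.89. Deadenylation and decay factors had 3 of 48 higher and 8 lower, yet their share of TPM was 0.545% to 0.686% in GROs and 0.714% to 0.983% in FGOs, without overlap. Cnot7, a catalytic subunit of the CCR4-NOT deadenylase, had 200.1, 328 and 396 CPM in GROs and 401, 892 and 1274 CPM in FGOs (log2 ratio 1.35), every FGO above every GRO. Dcp2, the decapping enzyme, had 33, 59.1 and 81.8 CPM in GROs and 74.1, 128 and 216 CPM in FGOs, and Upf2 of nonsense-mediated decay 16.6, 26.8 and 42.7 CPM in GROs and 28.6, 59.8 and 81.3 CPM in FGOs. Zfp36l2, which binds AU-rich elements, was lower without overlap, with 6.45, 12.2 and 36.2 CPM in GROs and 1.38, 2.92 and 5.57 CPM in FGOs, and Edc3 and Exosc6 had log2 ratios of -1.82 and -1.59. Much of the share of the decay list was Btg4, also a member, at 2491 TPM in GROs and 4139 TPM in FGOs.

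Among 16 writers, readers and erasers of the m6A mark on RNA, 1 was higher and 3 were lower. The higher one was Virma, a scaffold of the writer complex, with 11.4, 41.2 and 60.5 CPM in GROs and 65.6, 83.6 and 105 CPM in FGOs. Ythdf2, the reader that speeds up decay of marked messages, had 333, 428 and 528 CPM in GROs and 89.9, 175 and 387 CPM in FGOs, and Ythdf1 had 11.2, 23.5 and 149 CPM in GROs and 3.97, 8.45 and 24.1 CPM in FGOs (log2 ratio -2.16). Splicing factors had 0 of 87 higher and 11 lower, near the background for lower genes, with a median log2 ratio of -0.34. Snrpb, a core Sm protein of the spliceosome, had 96.9, 130.1 and 209 CPM in GROs and 8.5, 36.5 and 78.9 CPM in FGOs without overlap. Lsm4 had 51.4, 115 and 166 CPM in GROs and 19.1, 35.5 and 67 CPM in FGOs, and Hnrnpa0 a log2 ratio of -1.70.

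Of the 284 genes of transcription and translation, 1 was at least 2-fold higher in FGOs and 27 were lower. Their lists had median levels of 19.5 to 108 CPM, and between 20 and 100 CPM 6.85% of all genes were higher and 11% lower. Short of 2-fold each list had members with a ratio above 0, as 31 of 69 among general factors and Mediator. Of 63 cytosolic ribosomal protein genes 0 were at least 2-fold higher and 3 lower, with a median of -0.19 and quartiles of -0.39 and -0.01. The lower ones included Rpl10l, with 10.5, 16.6 and 23 CPM in GROs and 1.08, 4.08 and 12.3 CPM in FGOs, and Rps4l, with 125, 199 and 495 CPM in GROs and 78.8, 113 and 164 CPM in FGOs, both copies of other ribosomal genes, where reads that fit both copies were not counted. Ribosome biogenesis had 0 of 62 higher and 7 lower. Nop2, a ribosomal RNA methyltransferase, had 33.8, 48.4 and 68 CPM in GROs and 3.68, 9.7 and 60.6 CPM in FGOs, and Gnl3l and Tsr2 had log2 ratios of -1.68 and -1.43. RNA polymerase subunits had 0 of 20 higher and 4 lower. Polr2a, the largest subunit of RNA polymerase II, had 34.7, 48.9 and 101 CPM in GROs and 12, 19.1 and 43.2 CPM in FGOs, and Polr3d and Polr3e of RNA polymerase III had log2 ratios of -1.24 and -1.63.

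General factors of RNA polymerase II and Mediator had 1 of 69 higher and 6 lower. Ccnh, the cyclin of the CDK-activating kinase in TFIIH, was the higher one, with 11.4, 24.2 and 39.1 CPM in GROs and 34, 54.9 and 69.3 CPM in FGOs. Among the lower ones, Taf1c, which matched by its symbol but is a factor of RNA polymerase I, had 20.1, 35.1 and 52.9 CPM in GROs and 0.407, 3.65 and 24.5 CPM in FGOs. Med16 had a log2 ratio of -1.94 and Nelfb, of the pausing complex NELF, -1.43. Among 53 translation factors 0 were higher and 6 lower (11.3%, at a median level of 108 CPM). Of all genes between 100 and 500 CPM 3.08% were lower. Eif4ebp1, which restrains cap-dependent translation, had a pooled level of 29.9 CPM (95% interval 29 to 30.7) in GROs and 5.04 CPM (4.68 to 5.41) in FGOs (log2 ratio -2.46), and Eif5a2 and Eif2b5 had log2 ratios of -2.20 and -1.34. Cytosolic tRNA synthetases had 0 of 17 higher and 1 lower, the lower one being Yars (log2 ratio -1.39).

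Mitochondrial genes had 1.84% of 217 members higher and 9.22% lower. Their lists had median levels of 18.2 to 124 CPM. Between 20 and 100 CPM 6.85% of all genes were higher and 11% lower, and between 100 and 500 CPM 3.95% and 3.08%. Subunits of oxidative phosphorylation, at a median level of 124 CPM, had 7.58% of members lower. Of 66 nuclear genes for subunits of oxidative phosphorylation, 1 was at least 2-fold higher and 5 were lower (3 without GRO 3), with a median of -0.36 and quartiles of -0.63 and -0.13, and their share of TPM had a median of 2.36% in GROs and 1.93% in FGOs. Uqcrc1, a core protein of complex III, had 143, 189.7 and 245 CPM in GROs and 4.47, 26.5 and 117 CPM in FGOs (log2 ratio -2.49), every FGO below every GRO. Cyc1, its cytochrome, had 39.9, 71 and 137 CPM in GROs and 15.2, 24 and 44.4 CPM in FGOs, and Atp5g3 of the ATP synthase had 38.8, 67.7 and 118 CPM in GROs and 18.1, 25.7 and 49.4 CPM in FGOs. The higher one was Cox6a2, known as the muscle isoform of a cytochrome oxidase subunit, with 2.7, 7.59 and 23.8 CPM in GROs and 20.8, 35.7 and 47 CPM in FGOs. Assembly factors of the chain had 1 of 30 higher and 4 lower. Ndufaf6 had 0.701, 2.3 and 4.78 CPM in GROs and 6.21, 9.32 and 13 CPM in FGOs, above all GROs, and Lyrm7 had 19.6, 33.3 and 48.8 CPM in GROs and 4.1, 6.71 and 9.91 CPM in FGOs, below all of them. Foxred1 and Ndufaf1, both of complex I assembly, had log2 ratios of -1.14 and -1.60.

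Mitochondrial ribosomal proteins had 0 of 62 higher and 4 lower, among them Mrpl20 with 23.9, 33.2 and 51.2 CPM in GROs and 8.27, 13.5 and 22.2 CPM in FGOs, Mrpl19 (log2 ratio -1.25) and Mrpl43 (-1.15). The 27 genes of the TCA cycle and of pyruvate dehydrogenase held no member past 2-fold in either direction, and the widest was the kinase Pdk4 at under 1 pooled CPM (log2 ratio 0.70, and -0.11 with the 15 kept FGOs). Of 36 mitochondrial carriers, 2 were higher and 7 lower (11 lower with the 15 kept FGOs). Slc25a26, which imports S-adenosylmethionine, had pooled levels of 258 CPM in GROs and 117 CPM in FGOs, without overlap of single oocytes. Slc25a10, the dicarboxylate carrier, had a log2 ratio of -1.97 and Slc25a37, mitoferrin, -2.57. Slc25a13, the aspartate-glutamate carrier citrin, was higher, with 1.16, 8.64 and 19.5 CPM in GROs and 10.9, 65.1 and 95.1 CPM in FGOs (log2 ratio 2.46).

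Of 21 genes of glycolysis and lactate metabolism, 2 were higher and 2 lower, and their share of TPM was 0.797% to 1.15% in GROs and 0.468% to 0.689% in FGOs, without overlap, most of it being Ldhb. Gapdh, a glycolytic enzyme at a low level in these counts, had 5.57, 9.55 and 14.5 CPM in GROs and 0.678, 2.5 and 5.87 CPM in FGOs (log2 ratio -1.66). Of 24 genes of cholesterol synthesis and uptake, which the oocyte is known to leave largely to its granulosa cells, 1 was higher and 5 were lower. Pmvk, the phosphomevalonate kinase, had 9.43, 24 and 45.7 CPM in GROs and 0.275, 1.92 and 11.7 CPM in FGOs (log2 ratio -2.60). Tm7sf2, a sterol reductase, had 13.7, 20 and 43.3 CPM in GROs and 4.06, 8.35 and 11.9 CPM in FGOs, and Srebf2, the regulator of the pathway, a log2 ratio of -1.05. Ebp, a sterol isomerase, was the higher one (log2 ratio 1.37).

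Fatty acid oxidation and lipid droplets had 0 of 24 members higher and 3 lower (5 lower with the 15 kept FGOs). Plin3, a coat protein of lipid droplets, had 55.9, 94.5 and 208 CPM in GROs and 21.1, 35.7 and 93.3 CPM in FGOs, and Eci1 a log2 ratio of -1.46. In antioxidant defence 1 of 30 was higher and 6 were lower. Gpx1, a glutathione peroxidase, had 47.9, 91 and 194 CPM in GROs and 10.7, 24.8 and 79.2 CPM in FGOs, and Gsr, glutathione reductase, 12.8, 19 and 39.1 CPM in GROs and 2.25, 5.28 and 15.8 CPM in FGOs. Retinoid and xenobiotic metabolism was the list with the highest median: 23 of 67 were at least 2-fold higher and 6 lower (10 lower with the 15 kept FGOs). Crabp2, which carries retinoic acid to its receptor, had 11.6, 26.8 and 82.7 CPM in GROs and 84.1, 137 and 247 CPM in FGOs, every FGO above every GRO. Ugt2b38, a glucuronosyltransferase, had 0, 0.278 and 3.44 CPM in GROs and 1.17, 8.89 and 16.3 CPM in FGOs (log2 ratio 3.04). Cyp19a1, the aromatase that is a marker of granulosa cells, had 0, 7.41 and 35.1 CPM in GROs and 25.1, 67.6 and 93.5 CPM in FGOs (log2 ratio 2.79). The granulosa sum, of which Cyp19a1 is itself a part and Esr2 the most, was also higher in FGOs. Of its 11 markers 6 were at least 2-fold higher, but Fshr, the receptor of follicle-stimulating hormone, had a log2 ratio of -0.29. The lowest of their medians in FGOs were 0.19 CPM in Wt1, 0.39 in Amh, 0.41 in Inhba and 0.45 in Fst. What part granulosa RNA has in these values was not tested. The list also includes the steroid enzymes Cyp11a1 and Cyp19a1, which are not enzymes of xenobiotics.

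Protein turnover had 4.92% of 427 genes higher and 10.3% lower, both below the shares over all genes. Its lists had median levels of 39.9 to 124 CPM, and genes of like level also had smaller shares. Between 20 and 100 CPM 6.85% of all genes were higher and 11% lower, and between 100 and 500 CPM 3.95% and 3.08%. Of 43 proteasome genes 1 was higher and 4 were lower. Psmf1, an inhibitor of the proteasome, had 214, 289 and 382 CPM in GROs and 509.6, 631 and 744 CPM in FGOs with every FGO above every GRO, and Psmb5, a catalytic subunit, had 37.5, 51.9 and 66 CPM in GROs and 10.6, 15.8 and 35.8 CPM in FGOs with every FGO below. Psmd13 of the cap and Psmg2 of the assembly chaperones had log2 ratios of -1.81 and -1.74. Ubiquitin-conjugating enzymes and deubiquitinases had 5 of 98 higher and 10 lower (17 lower with the 15 kept FGOs). Ube2u had 0.14, 2.16 and 5.85 CPM in GROs and 8.51, 18.2 and 28.5 CPM in FGOs, and Usp35, Otud7b and Ube2r2 had log2 ratios of -2.15, -1.78 and -1.78. The ligases of the APC/C, SCF and F-box groups had equal numbers, 8 and 8 of 83, and a median of 0.12. Fbxl17 had 7.57, 16.1 and 41.2 CPM in GROs and 35.1, 74.2 and 91.4 CPM in FGOs, and Fbxo15 and Fbxo16 had log2 ratios of 2.33 and 1.72. Cul4a, a cullin scaffold, had 35.1, 47.4 and 85.4 CPM in GROs and 8.54, 16.5 and 28.2 CPM in FGOs without overlap, Fbxl15 a log2 ratio of -2.36 and Fbxw7 -1.52.

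Among 72 heat shock proteins and chaperonins, 1 was higher and 7 were lower (median log2 ratio -0.36), with a median share of TPM of 1.03% in GROs and 0.87% in FGOs. Hsp90ab1, the constitutive HSP90, had 682, 1169 and 2012 CPM in GROs and 194, 353 and 662 CPM in FGOs without overlap. Cct6a, a subunit of the chaperonin that folds actin and tubulin, had 80, 124 and 176 CPM in GROs and 3.71, 27.3 and 126 CPM in FGOs, and Hspbp1 a log2 ratio of -2.11. Dnajb4, an HSP40 cochaperone, was higher, with 67, 156 and 274 CPM in GROs and 257, 812 and 1093 CPM in FGOs (log2 ratio 2.26). Autophagy and lysosome genes had 4 of 64 higher and 6 lower. Ctsd, the lysosomal protease cathepsin D, had 132, 316 and 447 CPM in GROs and 38.1, 81.1 and 165 CPM in FGOs, and Atg4d had a log2 ratio of -2.47. Atp6v0a4, a subunit of the vacuolar proton pump, had 0.701, 1.78 and 6.13 CPM in GROs and 3.81, 12.4 and 25.6 CPM in FGOs, and Wipi1 and Atg10 had log2 ratios of 1.36 and 1.05.

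Of 68 genes of translocation into the endoplasmic reticulum and of vesicle coats, 2 were higher and 9 lower. The higher ones were Sec16b and Sec14l3 (log2 ratio 2.13). Sec14l3, and Sec14l4 among the lower ones, matched by symbol and are relatives of a lipid-binding protein rather than parts of the coat or channel. Srp68, of the signal recognition particle, had 59, 96.9 and 172 CPM in GROs and 14.4, 34 and 76.4 CPM in FGOs, Sec61a2, of the translocation channel, a log2 ratio of -1.87 and Tmed1 -1.69.

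Genes of meiosis and DNA replication had a median log2 ratio of 0.07 over 245 genes, with 3.27% higher and 7.35% lower. Cell cycle kinases and regulators of meiotic resumption had 3 of 36 higher and 2 lower (median log2 ratio 0.14). Ccnb3, a cyclin of the meiotic divisions, had 6.77, 19.1 and 32.4 CPM in GROs and 28.9, 93.4 and 127 CPM in FGOs (log2 ratio 2.16). Prkar2b, a regulatory subunit of protein kinase A, had 4.13, 13.3 and 26.4 CPM in GROs and 28.4, 64.7 and 99.6 CPM in FGOs, and Prkacb, a catalytic subunit of the same kinase, had 34.6, 44.9 and 60.6 CPM in GROs and 5.83, 11.1 and 26.6 CPM in FGOs. These kinase subunits separated without overlap, on opposite sides. Wee1, an inhibitory kinase of CDK1, had 44.8, 62.3 and 111 CPM in GROs and 9.62, 14.7 and 55 CPM in FGOs. Spindle checkpoint genes and Aurora kinases had 1 of 18 higher and 0 lower (1 lower with the 15 kept FGOs), and their share of TPM was 0.418% to 0.489% in GROs and 0.517% to 0.621% in FGOs, without overlap. Bub1b, the checkpoint kinase BUBR1, had 412, 638 and 1158 CPM in GROs and 979, 1401 and 1795 CPM in FGOs (log2 ratio 1.12). Kinetochore genes had 1 of 34 higher and 2 lower, and 0 higher when FGO 9 or any of several other oocytes was left out. Spc24, of the NDC80 complex, had 85.3, 101 and 162 CPM in GROs and 27, 44.9 and 86.5 CPM in FGOs, and Nsl1 a log2 ratio of -1.14.

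Cohesin and condensin had 0 of 23 higher and 4 lower. Smc2 of condensin had 126, 174 and 241 CPM in GROs and 39.6, 70.9 and 139 CPM in FGOs, and the cohesin regulators Pds5a and Pds5b had log2 ratios of -1.69 and -1.10. In synapsis and meiotic recombination, which end before oocyte growth, 3 of 33 were higher and 5 lower. Sycp3, of the axial elements of meiotic chromosomes, had 33.9, 81 and 126 CPM in GROs and 13.2, 21.6 and 36.2 CPM in FGOs, and Sycp1, of the synaptonemal complex, 13.9, 44.8 and 78.9 CPM in GROs and 11.7, 16.7 and 24.5 CPM in FGOs. Mei4, a factor for meiotic double-strand breaks, had 1.4, 3.62 and 11.3 CPM in GROs and 7.04, 59.3 and 77.6 CPM in FGOs in the other direction (log2 ratio 3.50). Tex11 and the recombinase Dmc1 had log2 ratios of 1.71 and 1.01.

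DNA replication genes held 0 of 51 members higher and 1 lower, and their share of TPM was 0.597% to 0.676% in GROs and 0.676% to 0.738% in FGOs, ranges that just failed to meet. The lower one was Pold1, the catalytic subunit of DNA polymerase delta, with 13.9, 37 and 63.9 CPM in GROs and 3.12, 8.15 and 41.9 CPM in FGOs. The DNA damage response had 0 of 50 higher and 4 lower. Chek2, the checkpoint kinase that culls damaged oocytes, had 17.5, 24.9 and 35.7 CPM in GROs and 2.17, 5.46 and 16 CPM in FGOs without overlap (log2 ratio -1.70). Parp1 had 59.3, 119 and 259 CPM in GROs and 17.6, 33.3 and 112 CPM in FGOs, and Mdc1 a log2 ratio of -1.35.

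In the cytoskeleton, alpha tubulin isoforms stood on opposite sides. Tubulins and spindle pole genes had 4 of 46 higher and 6 lower. Tuba1c had 173, 222 and 293 CPM in GROs and 57.6, 96.4 and 152 CPM in FGOs, below all GROs, and Tubb2b had 26.4, 54.2 and 127 CPM in GROs and 15.3, 23.7 and 60.1 CPM in FGOs. Tuba3a had 61.1, 167 and 253 CPM in GROs and 215, 365 and 483 CPM in FGOs, Tuba3b 0, 1.37 and 23.8 CPM in GROs and 6.75, 52 and 126 CPM in FGOs, and Tubal3 4.62, 16.1 and 57.7 CPM in GROs and 40.3, 87.1 and 118 CPM in FGOs. Alpha tubulin genes are near-identical in coding sequence, and reads that fit more than 1 of them were not counted. Tubgcp6, of the ring complex that nucleates microtubules, had a log2 ratio of -1.53. Kinesin and dynein motors had 4 of 61 higher and 11 lower (19 lower with the 15 kept FGOs). Dync1h1, the heavy chain of cytoplasmic dynein, had 21.9, 35.5 and 89.5 CPM in GROs and 3.56, 10.3 and 26.7 CPM in FGOs, and Dync1i1, an intermediate chain of the same motor, 0, 1.99 and 11.3 CPM in GROs and 4.25, 13.5 and 30.7 CPM in FGOs, on the FGO side. Kif5c, a kinesin heavy chain, had 2.24, 10.7 and 28.8 CPM in GROs and 23.2, 49.8 and 65.8 CPM in FGOs, while Kifap3 had 17.1, 29.1 and 61.2 CPM in GROs and 2.64, 5.99 and 10.7 CPM in FGOs without overlap. Dnah5, an axonemal dynein, and Klc3, a kinesin light chain, had log2 ratios of 2.37 and -1.91.

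Actin regulators and myosins had 2 of 81 higher and 7 lower (13 lower with the 15 kept FGOs). Actb, beta actin, had 449.8, 715 and 1219 CPM in GROs and 185, 227 and 424 CPM in FGOs, every FGO below every GRO (log2 ratio -1.61). Spire1, the actin nucleator that positions the meiotic spindle, had 45.7, 115 and 179 CPM in GROs and 140.4, 451 and 638 CPM in FGOs (log2 ratio 1.84). Myo16 had 0.587, 3.64 and 7.99 CPM in GROs and 9.83, 26.4 and 37.2 CPM in FGOs, above all GROs, and Cttn and Fmnl2 had log2 ratios of -1.59 and -1.96. Nuclear pore and transport genes had 0 of 53 higher and 7 lower. Ran, the GTPase that sets the direction of nuclear transport, had 108, 162 and 201 CPM in GROs and 24.5, 53.4 and 98 CPM in FGOs without overlap, Rangap1, its activating protein, 14.7, 44.1 and 117 CPM in GROs and 3.71, 13.1 and 29.7 CPM in FGOs, and Kpna4, an importin, a log2 ratio of -2.46.

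Genes of chromatin and its regulators, as counted above, had 18.4% of members lower, and 317 of the 613 are Zfp genes with a median level between 5 and 20 CPM. Among all genes of that range of level 23.5% were lower, against 18.3% of the Zfp genes. Most other lists of the theme had median levels above 20 CPM, with 10.9% to 25.8% of members lower in those. Among all genes between 20 and 100 CPM 11% were lower. Of 19 histone lysine demethylases, 0 were at least 2-fold higher and 6 lower (median log2 ratio -0.66, and 9 lower with the 15 kept FGOs), and their median share of TPM was 0.0806% in GROs and 0.0535% in FGOs. Kdm1b, the histone demethylase required for setting maternal imprints, had 619, 900.2 and 1158 CPM in GROs and 153, 399 and 583 CPM in FGOs, every FGO below every GRO (log2 ratio -1.31). Kdm5a had 22.1, 40.8 and 72.5 CPM in GROs and 1.76, 8.37 and 28.9 CPM in FGOs, and Kdm4b a log2 ratio of -1.37. Histone acetylation and deacetylation had 0 of 44 higher and 10 lower. Hdac1 had 8.9, 12.4 and 22.8 CPM in GROs and 1.76, 3.24 and 6.58 CPM in FGOs without overlap, Mta2 of the NuRD complex 16.1, 27.6 and 163 CPM in GROs and 0.688, 2.96 and 27.6 CPM in FGOs, and Hdac11 a log2 ratio of -2.23. In the 55 genes of chromatin remodelling complexes 0 were higher and 6 lower (10 lower with the 15 kept FGOs). Dpf2 had 85.6, 122 and 143 CPM in GROs and 9.22, 28.4 and 113 CPM in FGOs, Smarcd1 a log2 ratio of -2.13 and Smarcc1 -1.15, all of them subunits of BAF complexes.

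DNA methylation genes had 0 of 21 higher and 4 lower. Tet1 and Dnmt3l lay just under 2-fold, with log2 ratios that round to 1.00, and leaving out GRO 1, 6, 10 or 23 gave 2 higher members. Dnmt1, the maintenance methyltransferase, had 1730.1, 3217 and 8556 CPM in GROs and 802, 1303 and 3356 CPM in FGOs (log2 ratio -1.24), and Uhrf1, its partner, 359, 723 and 1702 CPM in GROs and 205, 266 and 764 CPM in FGOs. In both the highest FGO lay well inside the range of GROs. Histone lysine methyltransferases had 3 of 42 higher and 7 lower. Nsd1, a methyltransferase of histone H3 lysine 36, had 53.6, 77.8 and 119 CPM in GROs and 108, 234 and 286 CPM in FGOs (log2 ratio 1.47). Kmt5b had 12.8, 17.7 and 25.6 CPM in GROs and 2.79, 5.13 and 8.07 CPM in FGOs without overlap, and Kmt5c and Ehmt2 had log2 ratios of -2.05 and -2.43. Kmt5b and Kmt5c both methylate histone H4, and Ehmt2 is the H3 lysine 9 methyltransferase G9a. Polycomb group genes had 1 of 39 higher and 6 lower. Cbx7 had 8.24, 15.8 and 37.2 CPM in GROs and 0.991, 2.25 and 21.1 CPM in FGOs, Cbx8 a log2 ratio of -2.28, and Yaf2, a partner of RING1 proteins, 9.58, 20.4 and 38.5 CPM in GROs and 30.4, 74.2 and 95.5 CPM in FGOs.

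Most histone messages lack a poly(A) tail and are only partly seen here, and of 21 histone genes measured 1 was higher and 2 were lower. The replication-independent variant gene H2az1 had 7.8, 11.6 and 18.7 CPM in GROs and 0.413, 2.26 and 7.92 CPM in FGOs, and H1f2 a log2 ratio of -1.39. The 317 Zfp zinc finger genes, many of them KRAB repressors of transposons, had 16 higher and 58 lower, yet a median share of TPM of 1.07% in GROs and 1.25% in FGOs. Zfp616 had 18.5, 61.5 and 118 CPM in GROs and 129, 211 and 283 CPM in FGOs, above all GROs, Zfp735 10.2, 49.6 and 96.3 CPM in GROs and 79.1, 181 and 254 CPM in FGOs, and Zfp708 a log2 ratio of 2.56. Zfp395, Zfp768 and Zfp771 stood on the other side, with log2 ratios of -3.12, -3.00 and -2.74.

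Genes of the piRNA and small RNA pathways, which silence transposons, had 2 of 31 higher and 8 lower. Piwil2, a PIWI protein, had 53.2, 70.6 and 108 CPM in GROs and 0.931, 8.42 and 38.9 CPM in FGOs (log2 ratio -2.45), Gpat2 53.7, 75.6 and 105 CPM in GROs and 1.7, 7.93 and 46.5 CPM in FGOs and the germ cell helicase Ddx4 262, 527 and 598 CPM in GROs and 37.3, 123 and 409.6 CPM in FGOs. In Piwil2 and Gpat2 no FGO reached a GRO. Piwil1, another PIWI protein, was higher, with 0, 2.95 and 13.9 CPM in GROs and 8.76, 22.7 and 37.7 CPM in FGOs (log2 ratio 2.56), and so was Mov10 (1.13). Imprinted genes had 4 of 30 higher and 7 lower. Inpp5f had 49.1, 68.1 and 90 CPM in GROs and 20.4, 26.3 and 48.5 CPM in FGOs without overlap, Impact 16.6, 28.7 and 42.5 CPM in GROs and 1.79, 4.02 and 27.5 CPM in FGOs, and the noncoding Kcnq1ot1 a log2 ratio of -1.29. The noncoding Meg3 was higher, with 0, 1.53 and 4.62 CPM in GROs and 3.18, 5.41 and 9.7 CPM in FGOs.

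Signalling lists differed in level, and are set beside genes of like level, whose median log2 ratio was -0.29 between 5 and 20 CPM and -0.16 between 20 and 100 CPM. The Kit, PI3K, mTOR and FOXO pathway, which wakes the primordial follicle, had 0 of 35 higher and 8 lower (median log2 ratio -0.49, at a median level of 21.4 CPM), and its median share of TPM was 0.146% in GROs and 0.106% in FGOs. Pik3r2, a regulatory subunit of PI3K, had 11.7, 21.4 and 200.3 CPM in GROs and 2.14, 5.58 and 23.6 CPM in FGOs, and Mlst8, a subunit of both mTOR complexes, 18.6, 33.6 and 46 CPM in GROs and 5.37, 9.73 and 26.8 CPM in FGOs. The highest Pik3r2 value was that of GRO 3, and its log2 ratio of -1.81 was -1.41 without that oocyte. The Notch pathway had 0 of 31 higher and 8 lower (25.8%, at a median level of 9.09 CPM, where 23.5% of all genes between 5 and 20 CPM were lower), with a median of -0.40. Hes6 had 79, 109 and 153 CPM in GROs and 22, 41.8 and 109 CPM in FGOs, and Mib1, the ligase that activates Notch ligands, 6.2, 11.5 and 39.1 CPM in GROs and 1.83, 3.63 and 8.42 CPM in FGOs. The Wnt pathway had 2 of 37 higher and 10 lower (27%, at a median level of 8.97 CPM), and its median of -0.29 was that of genes of like level. Fzd5, a Wnt receptor, had 5.79, 13.8 and 50.2 CPM in GROs and 0, 0.203 and 5.13 CPM in FGOs, every FGO below every GRO (log2 ratio -3.43). Wnt9a had 6.1, 13.9 and 37.1 CPM in GROs and 0.131, 1.32 and 16.1 CPM in FGOs. The transcription factors at the end of the pathway stood on opposite sides, Lef1 with 5.49, 42.4 and 90.7 CPM in GROs and 78.2, 162 and 216 CPM in FGOs and Tcf7l2 with 22.1, 30.8 and 48.2 CPM in GROs and 6.93, 12.2 and 31.7 CPM in FGOs.

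Of 91 G protein-coupled receptors that entered from 180 in the table, 20 were higher (22%) and 13 lower (14.3%). Their median level was 3.3 CPM. Htr3b, counted among the higher ones, and Htr3a matched by symbol but are subunits of an ion channel. Beside Htr5a, Adgrb3 had 0, 1.08 and 8.29 CPM in GROs and 6.75, 31.7 and 46.7 CPM in FGOs and Adgrl2 0, 0.218 and 2.84 CPM in GROs and 1.03, 9.88 and 18.4 CPM in FGOs, both adhesion receptors. Htr5b, a serotonin receptor closely related to Htr5a, stood on the GRO side, with 19.7, 45.4 and 87.3 CPM in GROs and 1.22, 5.72 and 21.3 CPM in FGOs (log2 ratio -2.81). Gpr174 had a log2 ratio of -1.91. Ion channels had 17 of 111 higher (15.3%) and 9 lower (8.11%), at a median level of 3.93 CPM. Among all genes between 1 and 5 CPM 18.2% were higher and 18.7% lower. Trpa1, a calcium-permeable channel, had 0, 5.43 and 15.1 CPM in GROs and 7.77, 33.6 and 55.9 CPM in FGOs. Cacng4 had 0.142, 0.733 and 3.29 CPM in GROs and 4.55, 13.5 and 24.4 CPM in FGOs, and Chrna5, a nicotinic receptor subunit, 0, 0.54 and 1.64 CPM in GROs and 1.91, 6.4 and 10.6 CPM in FGOs, both without overlap. Glra4, a glycine receptor subunit, had 7.7, 12.6 and 18.8 CPM in GROs and 1.51, 3.97 and 7.55 CPM in FGOs, below all GROs.

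Chemokines, cytokines and their receptors had 13 of 37 higher and 1 lower (3 lower with the 15 kept FGOs). With all oocytes that is 35.1% and 2.7%, at a median level of 2.37 CPM. Il23r, an interleukin receptor, had 0, 2.4 and 14.4 CPM in GROs and 17.2, 21.4 and 28.5 CPM in FGOs, and Cxcl13, a chemokine for B cells, 0, 0.273 and 1.86 CPM in GROs and 1.88, 6.02 and 9.22 CPM in FGOs, each with every FGO above every GRO. Tnfsf13b, the B cell factor BAFF, had 0.165, 10.3 and 119 CPM in GROs and 17.7, 49.1 and 66.2 CPM in FGOs. Of the blood cell markers Ptprc had 0 reads at both stages, and Cd68, of macrophages, had a log2 ratio of -0.44. Pecam1, listed as an endothelial marker, made up most of that list's sum, with pooled levels of 67 CPM in GROs and 124 CPM in FGOs (log2 ratio 0.88). The other endothelial markers did not share this level. Cdh5 had 0.0124 CPM in the GRO pool and 0.0069 CPM in the FGO pool, and Kdr 0.0803 and 0.31 CPM. Calcium release and entry genes had 2 of 33 higher (6.06%) and 5 lower (15.2%), at a median level of 30.9 CPM. Between 20 and 100 CPM 6.85% of all genes were higher and 11% lower. Mcu, the calcium channel of mitochondria, had 59.8, 100.2 and 134 CPM in GROs and 130.2, 298 and 388 CPM in FGOs, and Vdac2, a channel of their outer membrane, 51.4, 69.7 and 89.2 CPM in GROs and 73.9, 193 and 283 CPM in FGOs. Itpr3, a calcium release channel, had 5.13, 16.6 and 39.3 CPM in GROs and 0.688, 3.39 and 7.37 CPM in FGOs, and Plcg1 and Calm3 had log2 ratios of -1.22 and -1.30.

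At the membrane, solute carriers outside mitochondria had 46 of 200 members at least 2-fold higher and 26 lower. Slc2a12, a sugar transporter, had 0, 1.58 and 32.2 CPM in GROs and 30.2, 72.3 and 111 CPM in FGOs, Slc2a9, a urate and sugar transporter, 0, 0.0723 and 1.43 CPM in GROs and 1.17, 11 and 18 CPM in FGOs, and the amino acid transporter Slc6a15 a log2 ratio of 5.16. On the GRO side were Slc45a4 (log2 ratio -3.16), Slc27a4, a fatty acid transporter (-2.45), and Slc39a1. Cadherins, contactins and gap junction genes had 35 of 101 higher and 7 lower (11 lower with the 15 kept FGOs). In the clustered protocadherins neighbouring genes hold the same reads, and with 1 gene kept per such set 24 of 68 were higher (median log2 ratio 0.40). Cdh17, a cadherin, had 0, 0.72 and 3.77 CPM in GROs and 3.96, 18.8 and 32.3 CPM in FGOs, and Pcdhb17 0, 1.21 and 5.2 CPM in GROs and 4.55, 20.2 and 38.4 CPM in FGOs. Gja1, the connexin of granulosa gap junctions, had 0, 1.14 and 6.1 CPM in GROs and 0, 6.23 and 294 CPM in FGOs, and its log2 ratio of 3.88 became 2.80 without FGO 19 and 1.83 with the 15 kept FGOs. The lower members named were claudins of tight junctions: Cldn4 had 159.7, 210.0 and 334 CPM in GROs and 36, 69.7 and 176 CPM in FGOs, Cldn6 a log2 ratio of -2.22 and Cldn7 -1.62. Other claudins stood on the FGO side, as Cldn10 with 2.81 and Cldn15 with 2.47, which were picked after their values were seen.

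Integrins and extracellular matrix genes had nearly equal numbers, 13 higher and 14 lower of 80. Itgb4, an integrin of hemidesmosomes, had 0, 2.12 and 9.91 CPM in GROs and 5.74, 14.2 and 73.5 CPM in FGOs, and the collagens Col24a1 and Col19a1 had log2 ratios of 2.38 and 2.08. Gpc1, a glypican, had 5.49, 10.6 and 35.1 CPM in GROs and 0.954, 3.02 and 7.22 CPM in FGOs, Mmp15, a matrix metalloproteinase, a log2 ratio of -2.76 and Itgb2l -1.81. Apoptosis genes had 1 of 28 higher and 4 lower, with a median share of TPM of 0.624% in GROs and 0.874% in FGOs, most of it Bcl2l10. Mcl1, an anti-apoptotic protein, had 6.65, 15.6 and 70.9 CPM in GROs and 1.08, 3.75 and 14 CPM in FGOs, Casp6, a caspase, 4.96, 16.3 and 33 CPM in GROs and 0.826, 4.11 and 9.24 CPM in FGOs, and Xiap, an inhibitor of caspases, 18.8, 29.7 and 74.1 CPM in GROs and 8.54, 14.4 and 21.6 CPM in FGOs. Tnfrsf21, a death receptor, had 0, 1.57 and 22.4 CPM in GROs and 8.64, 31.5 and 61.5 CPM in FGOs, on the FGO side.

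Single FGOs differed in how far their levels lay from those of GROs. Each oocyte was placed between the stages by the median, over genes at least 2-fold apart, of its log2 level on a scale where 0% is the GRO median and 100% the FGO median, separately for genes higher and lower in FGOs and with the oocyte itself left out of the scale. GROs lay between -35.9% and 35.9% on the higher genes and between -13.6% and 15% on the lower ones. FGOs lay between 44.6% and 111% on the higher genes and between 20.5% and 123% on the lower genes. FGO 7 was nearest to the GROs at 44.6% and 20.5%. FGO 5 stood at 71.2% and 43.7%, and FGO 22 at 69.5% and 50.4%. FGO 19 stood at 91.5% on the higher but 39.3% on the lower genes, FGO 16 at 98.5% and 65.6%, and FGO 1, which the study had kept, at 94.4% and 67%. In 9 of the 20 FGOs the position on lower genes was below that on higher genes. FGO 19 also had the highest sum of granulosa markers and FGO 16 that of theca and stroma markers, whose part in these positions was not tested. Outside the 5 left out by size the range was 94.4% to 111% on higher and 67% to 123% on lower genes. Restricted to genes with a mean of both pooled levels above 20 CPM, FGO 19 stood at 85.2% and 41.9% and FGO 7 at 52.3% and 20.4%.

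**Figure D4:**
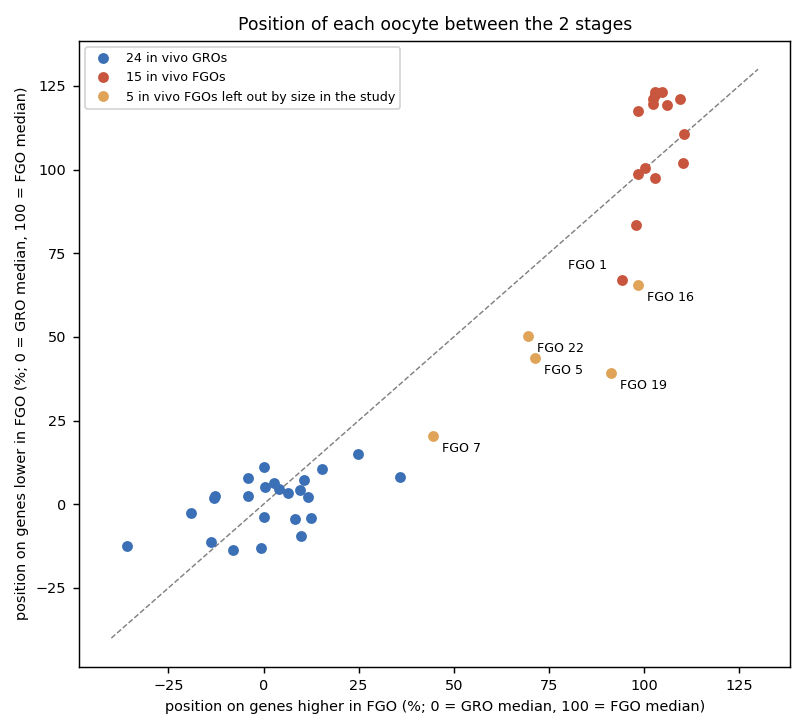
Position of each oocyte between the stages on genes at least 2-fold higher (horizontal) and lower (vertical) in FGOs, in percent (0 is the GRO median, 100 the FGO median); blue, 24 in vivo GROs; red, 15 in vivo FGOs; yellow, the 5 in vivo FGOs left out by size in the study; on the dashed line both positions are equal. FGO 19 lies at 91.5% and 39.3%, and FGO 7 at 44.6% and 20.5%.

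The genes that varied most among oocytes of a stage were ranked. With at least 20 CPM in the median oocyte of the stage, the ratio of the 90th to the 10th percentile was largest in Lmo3, a LIM-only cofactor of transcription, at 20.2 in FGOs, but it was 2.31 with the 15 kept FGOs, so that it rests on the 5 FGOs left out by size, a comparison added after seeing the data. Ldhc, the germ cell lactate dehydrogenase, had 64.4, 173 and 234 CPM in GROs and 5.15, 40.7 and 162 CPM in FGOs, a ratio of 17.8 in FGOs (10.8 with the 15 kept FGOs) against 1.8 in GROs. Cct6a spread 14.2-fold in FGOs (9.13-fold with the 15 kept FGOs) and 1.43-fold in GROs. Snai1, the transcription factor SNAIL, had 127, 223 and 302 CPM in GROs and 10.6, 25.3 and 191 CPM in FGOs, and Ust, a sulfotransferase, 0.66, 6.56 and 34.8 CPM in GROs and 2.83, 28.1 and 116 CPM in FGOs. Their ratios in FGOs were 9.06 and 12.7, and 3.57 and 11.9 with the 15 kept FGOs, against 1.58 and 7.61 in GROs, so that Ust varied widely in both stages. In GROs the widest were Wls, Otx1, Krt79, Gm4907 and Pcbp2. The ratio was 17.2 in GROs and 4.16 in FGOs for Wls, and 16.8 and 6.79 for Otx1. Wls, which carries Wnt proteins to the surface, had 0.495, 26.7 and 70.4 CPM in GROs and 4.55, 19.3 and 35.6 CPM in FGOs, and Otx1, a homeobox factor, 4.91, 43.9 and 198 CPM in GROs and 7.69, 38.8 and 81.4 CPM in FGOs. Pcbp2, an RNA-binding protein, spread 9.17-fold in GROs, with 38.5, 67 and 447 CPM, but 1.48-fold in FGOs. Gm4907 had 0.289, 42.8 and 139 CPM in GROs and 0.524, 52 and 105 CPM in FGOs, a spread of 9.23-fold in GROs and 3.59-fold in FGOs, and Krt79, a keratin, spread 10.5-fold in GROs and 8.08-fold in FGOs.

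Genes on the FGO and GRO sides differed in the sequence at their start. CpG islands, stretches dense in CpG, are the usual promoters of genes active in all cells, whereas genes of restricted use more often start in CpG-poor sequence. RefSeq promoters covered 78.8% of the genes that entered and 75.1% of the higher ones, under the 80% needed, so a comparison of promoters by class is void, since the genes without an entry could differ. The first 300 transcribed bases of the coding transcript, used in their place, covered 93% of all genes, 90.1% of the higher and 96.5% of the lower ones. A CpG ratio above 0.6 was found in 62.1% of all genes with a value, in 36.5% of those higher in FGOs and in 71.6% of those lower. Of genes separated without overlap it was 41.4% of the higher and 69.3% of the lower. Read the other way, of 1563 genes with a ratio up to 0.3, 23.2% were at least 2-fold higher and 9.21% lower, while of 7594 genes above 0.6, 5.94% were higher and 15.8% lower. For higher genes this order held in each of 3 classes of level, and above 100 CPM 15.4% of CpG-poor and 2.56% of CpG-rich genes were higher. For lower genes it held between 1 and 20 CPM only. Between 20 and 100 CPM 10% of genes with a ratio up to 0.3, 7.18% of those between and 12.4% of those above 0.6 were lower, and above 100 CPM the shares were 2.56%, 4.33% and 2.87%.

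**Figure D5:**
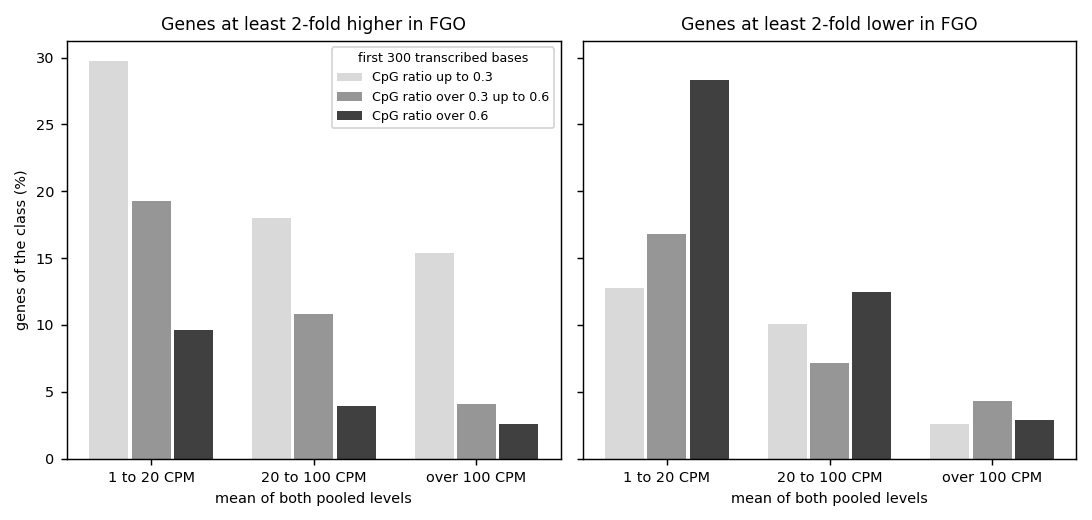
Percentage of genes at least 2-fold higher (left) and at least 2-fold lower (right) in FGOs, by the CpG ratio of the first 300 transcribed bases (grey shades) and by the mean of both pooled levels in CPM; bars start at 0. Between 1 and 20 CPM, 29.8% of genes with a ratio up to 0.3 are higher in FGOs against 9.62% of genes above 0.6, and 12.7% against 28.4% are lower.

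At the other end of the message, the cytoplasmic polyadenylation element binds CPEB1, which in oocytes lengthens or restrains the poly(A) tail. The letters TTTTAT or TTTTAAT were searched for on the message strand in the last 150 bases of the 3′ UTR, for 11642 genes with a 3′ UTR of at least 50 bases. They occurred in 23.8% of all these genes, in 26.6% of those higher in FGOs and in 20.7% of those lower. Among genes with a mean of both pooled levels above 20 CPM, the shares were 33.9% of the higher, 19.9% of the lower and 25.9% of genes within 2-fold. Of genes separated without overlap they were 32.8% and 18%. Among 3′ UTRs of 500 to 1500 bases the shares were 28.2% and 19%, against 23.5% of all genes. The 3′ UTRs of lower genes were richer in G and C (47.2% against 42%) and longer (median 1106 bases against 939). Above 20 CPM the order of length turned, with a median of 1060 bases in lower and 1086 in higher genes. The AU-rich letters TATTTAT occurred in 27.9% of the higher and 27.5% of the lower genes, against 26.4% of all genes. A match is a description of the letters and not a bound site.

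Growth was also sampled in oocytes derived from E12.5 embryonic gonads and grown in culture, 24 GROs and 24 FGOs that share no library with those from mice. In them 734 of the 13148 genes (5.58%) were at least 2-fold higher in FGOs and 1279 (9.73%) lower. The 13148 genes entered by their level in vivo, so a gene that passes the filter only in culture was not counted. Shares of the set from culture hold for these genes only. The middle gene there had a log2 ratio of -0.05. Of the 1373 genes higher in vivo 555 were also at least 2-fold higher there, 40.4% of the in vivo set and 75.6% of the set from culture, and 155 had a ratio at or below 0. Of the 1738 lower genes 890 were also lower, 51.2% and 69.6% of the respective sets, and 70 had a ratio at or above 0. Across genes the ratios correlated with r = 0.74, a description over genes measured by the same method. None of the genes separated without overlap in both comparisons did so in opposite directions. Of the 90 genes picked out above that were at least 2-fold higher in vivo, 56 were so from gonads and 4 had a ratio at or below 0, and of the 168 lower ones 120 were so and 3 had a ratio at or above 0. Medians of the 64 lists lay within 0.2 of each other in 43 lists and over 0.4 apart in 4, and had opposite signs in 16. The lists and genes that follow were chosen after their values were seen. Side by side, the medians in vivo and from gonads were 0.52 and 0.08 in retinoid and xenobiotic metabolism, -0.49 and 0.08 in the Kit and PI3K pathway, -0.34 and 0.03 in storage of maternal messages, -0.36 and -0.44 in oxidative phosphorylation and -0.16 and -0.54 in the zona list, whose median in vivo was -0.58 with the 15 kept FGOs. Crabp2 had a log2 ratio of 2.21 in vivo and -0.30 from gonads, Oog3 2.08 and 0.15, Slc2a12 3.69 and 0.26, Htr5b -2.81 and -0.40. Lmo3 had 5.11 and 5.22, Myot -3.42 and -3.42, and Cnot7 1.35 and 1.33. Whether these pairs of ratios differ was not tested.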

How the data were processed

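Single GROs and FGOs were sequenced by the authors with the Smart-seq2 method, in which reverse transcription starts from oligo-dT, so a level is that of polyadenylated RNA. The authors deposited 1 table of raw read counts for 21950 genes with exonic lengths, and the submitters' processing notes name STAR and the GRCm38 (mm10) build. Per the study's methods, QuasR counted uniquely mapped reads in the exons of 1 randomly chosen transcript per gene, and whether strand was used is not given in the sources used here. Spike-in RNA was added by the authors, but the table holds 0 spike-in rows. Entrez identifiers of 21907 genes matched a symbol and 43 did not.

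Columns were assigned by their sample titles. Counts were summed over the oocytes of a stage, divided by the summed library totals to give CPM, and compared as log2 ratios with a pseudocount of 0.5 CPM, for genes above 1 CPM in at least 3 of the 44 oocytes. Since the labels name no animal, no test, p-value or standard error was computed. Exact Poisson intervals (95%) and the floor of 3 reads, 0.0185 CPM in the GRO pool and 0.0207 CPM in the FGO pool, cover counting error only, and reads amplified without molecular identifiers are not independent molecules. TPM divides the counts by the deposited exonic length. The members and the gene lists were chosen with earlier results of these data known. Named genes were, in each list, up to 3 higher and 3 lower members with at least 5 pooled CPM and the same direction in at least 90% of the 480 pairs (otherwise the member of largest ratio), the 10 largest gains and losses of TPM, the 10 separated genes of largest ratio on each side, the cell type markers and the 5 genes of widest spread in each stage. Cldn10 and Cldn15 were added outside this rule.

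Sets of genes holding the same reads (40 genes) were also collapsed to 1 each. First and last transcribed bases were read from the coding transcript of the GENCODE annotation of GRCm38, a choice made after seeing the data. The calculation was tested on simulated data. Tools were Python 3.11.15, pandas 2.3.3, NumPy 2.4.6, SciPy 1.17.1, matplotlib 3.10.9 and, for alternative scalings and fitted coefficients, R 4.3.3 with edgeR 4.0.16 and DESeq2 1.42.0. Alternatives were another pseudocount, filter, scaling, summary over oocytes or fold, the leaving out of oocytes, and shares of counts without length.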

Additional observations from a re-analysis of the deposited data

How the results depend on the processing

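No paired analysis was possible because the results come from no test and the replicate numbers only name oocytes. The counts of genes at least 2-fold higher and lower, 1373 and 1738, became 897 and 1173 with a pseudocount of 2 CPM, and 404 and 256 when called at 4-fold, as follows from their construction. Leaving out single oocytes gave 1341 to 1402 higher and 1686 to 1894 lower genes. With the scaling of edgeR they were 1477 and 1566, with the size factors of DESeq2 1518 and 1495, and with coefficients of an edgeR fit 1917 and 2127. The number of lists with more lower than higher members, 52, ranged from 47 to 54 over the alternatives. Of the recomputed list medians 362 moved by less and 22 by more than 1 SD between oocytes, 11 of them under the scaling of edgeR. Of the recomputed ratios of named genes 77 moved by more than 1 SD and 0 changed sign among those past 2-fold. That SD is the spread between single oocytes, so a pooled ratio could hardly pass it when few oocytes were left out. Without the 5 FGOs left out by size all 290 named genes stayed within it, although 53 ratios moved by over 1.5-fold. The count of 77 is therefore no measure of how stable the ratios are. Shares counted without length were lower in FGOs in 30 lists, against 32 by TPM. With genes above 20 CPM only, 11 of the 20 FGOs stood lower on the lower genes, against 9. The limits are those of the design: each stage is 1 sample of oocytes that no label ties to animals, a CPM is a share, 5 FGOs were left out by the study for size, and genes below about 1 CPM rest on few reads.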

Other observations

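Read by shared symbol stem, without lists, 141 stems had at least 10 genes that entered. The 4 stems with the lowest medians and the 4 with the highest are given, a reading chosen after the values were seen. On the GRO side were Kctd genes, adaptors of cullin ligases among them, with a median log2 ratio of -0.84 and 5 of 15 at least 2-fold lower and 0 higher, and Tcf transcription factors, with -0.82 and 5 of 10 lower. Wnt ligands had a median of -0.73, with 3 of 10 lower and 0 higher, and Kdm demethylases -0.65, with 5 of 16 lower and 0 higher. On the FGO side were Pcdha protocadherins, with a median of 1.79 and 11 of 11 higher, though only 2 remained with 1 gene kept per set that holds the same reads. Serpinb protease inhibitors had a median of 1.12, with 7 of 11 higher and 0 lower, and Cyp genes of cytochrome P450 enzymes 0.76, with 12 of 36 higher and 3 lower. Pramel genes, relatives of a tumour antigen family used in germ cells, had 0.72, with 6 of 18 higher and 0 lower. Serpinb and Pramel genes are families of close copies, and reads that fit more than 1 copy were not counted.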
